A study of Mus musculus with 24 samples.

Results

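The Myc and Max network was followed through the H3K9ac peaks of 4T1 spheroids. The 10 genes were taken from a fixed list (Myc, Mycn, Mycl, Max, Mxd1, Mxd3, Mxd4, Mxi1, Mnt and Mlx), out of 21755 protein-coding genes on chromosomes 1 to 19 and X. A promoter was taken as 1000 bp to either side of each annotated start site of the gene, and a gene had a promoter peak when any peak of a list reached that window. In all, 8 of the 10 genes had a promoter peak in all 12 libraries, as did 10777 of the 21755 genes. Mycl had a promoter peak in 11 libraries and Mycn in 0.

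Myc, N-Myc and L-Myc are basic helix-loop-helix leucine zipper proteins that bind the E-box sequence CACGTG as dimers with Max and raise transcription of growth genes. The Mxd proteins, Mxi1 and Mnt pair with the same partner and repress through Sin3 complexes, while Mlx heads a parallel branch that pairs with the glucose-responsive Mondo proteins and with some of the repressors. Myc brings acetyltransferase complexes to chromatin, among them those built on KAT2a (also known as GCN5), and acetylation of histone H3 at lysine 9 marks active promoters.

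H3K9ac was profiled by ChIPmentation, in which a transposase tags the immunoprecipitated chromatin on the beads, in spheroids of 4T1, a mouse mammary carcinoma cell line. The 12 H3K9ac libraries formed 4 groups of 3 replicates, collected on day 5, namely scramble, KAT2a knockout, CPT1a knockout, and CPT1a knockout to which acetate was added (called CPT1a knockout with acetate). CPT1a moves long-chain fatty acids into mitochondria, and the comparisons ask whether its loss, the loss of KAT2a, or acetate as another source of acetyl groups goes with a different H3K9ac pattern. The labels give 75 µM palmitate for scramble, CPT1a knockout and KAT2a knockout, and 5 mM acetate for the fourth group without naming palmitate there, although a legend of the study describes the CPT1a spheroids as grown in palmitate both with acetate and without it. According to the study's methods, every line carried a doxycycline-inducible Cas9 and a lentiviral guide under puromycin selection, the scramble guide being directed against EGFP, so the control cells shared the Cas9 and the selection. Which of the guides was used in a library is not in the labels, nor whether a line was a pool or a clone, or whether replicates came from separate cultures, so the p-values measure only the spread between these libraries. The labels name no batch. The 12 input samples were not analysed here.

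The libraries differed in peak number and composition along the same line as scramble against the rest, and in depth by their group means. Lists held 16201 to 34330 peaks, with 29153 to 34330 in scramble and 16201 to 24594 in the other 9. The calling depth, the mean fragment coverage at which a list was called as recovered from its own fold enrichments and p-values, was lowest in CPT1a knockout replicate 3 (0.554) and highest in scramble replicate 1 (2.52). Its ranges overlapped, with 1.87 to 2.52 in scramble and 0.554 to 1.91 in the other 9. The share of genes with more than 1 promoter peak was 42.7 to 54.5% in the scramble libraries and 16.9 to 36.4% in the others, so promoter signal was broken into more pieces in scramble. The median GC content of the strongest promoter peaks was 49.8 to 50.8% in scramble and 52.9 to 56.4% elsewhere. Spearman's rho between GC content and fold enrichment over promoters was -0.326 to -0.286 in scramble and -0.257 to -0.0638 in the other 9 libraries. Genotype, depth and this shift in base composition cannot be told apart for scramble against the rest. Among epithelial genes, Krt8, Krt18, Krt19, Epcam, Cdh1 and Cldn4 had a promoter peak in all 12 lists, while Krt14 had one in 3 and Krt5 in 0. Of 6 leukocyte genes, 5 had none and Cd68 had one in 2 lists, and all 4 endothelial genes and all 4 genes of other tissues (Alb, Apoa2, Snap25 and Rbfox3) had none. Of the fibroblast genes, Pdgfra was called in 12 and Col1a1 in 11 lists, and Col1a2 and Dcn in 0. Promoters of Cpt1a and Kat2a were called in all 12 lists, but a mark at a promoter does not show whether the gene was edited.

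The sequences upstream of the network genes are given first, since the network acts on E-boxes and several of its own genes carry them. RefSeq promoter entries (GRCm38.p6) were found for 9 of the 10 genes, in 11 windows, and none for Myc. The 250 bases upstream of the start held CACGTG, a palindrome and hence the same on both strands, in 3 of these 9 genes, Mxd4, Mnt and Mlx. Over all 27025 genes with an entry, 6.86% had the motif in any of their windows, and of the 10924 windows whose genes were called in all 12 libraries, 8.39% held it. The match is a description of these letters only. No CACGTG lay in the RefSeq window of Mxd3, but the stretch of Mxd3 given further below holds it, upstream of that window. The stretches of Mxd4, Mnt and Mlx are shown with the E-box in capitals, followed by those of Max and Mxi1, which were called in at least 1 comparison and whose 250 upstream bases hold no CACGTG. The full window of Max, which runs 50 bases past the start, holds 1. All are written 5′ to 3′ on the gene's strand.
Mxd4 upstream, chr5:34187711-34187960: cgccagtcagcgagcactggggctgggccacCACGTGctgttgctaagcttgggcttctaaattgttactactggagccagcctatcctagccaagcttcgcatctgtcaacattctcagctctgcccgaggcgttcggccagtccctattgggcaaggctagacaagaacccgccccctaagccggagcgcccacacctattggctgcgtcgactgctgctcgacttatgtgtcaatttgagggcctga
Mnt upstream, chr11:74830674-74830923: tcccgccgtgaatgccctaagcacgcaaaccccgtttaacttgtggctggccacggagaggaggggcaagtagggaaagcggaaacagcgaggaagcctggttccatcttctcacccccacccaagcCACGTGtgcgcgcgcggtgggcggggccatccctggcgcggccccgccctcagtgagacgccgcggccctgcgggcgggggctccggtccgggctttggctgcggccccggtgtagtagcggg
Mlx upstream, chr11:101087040-101087289: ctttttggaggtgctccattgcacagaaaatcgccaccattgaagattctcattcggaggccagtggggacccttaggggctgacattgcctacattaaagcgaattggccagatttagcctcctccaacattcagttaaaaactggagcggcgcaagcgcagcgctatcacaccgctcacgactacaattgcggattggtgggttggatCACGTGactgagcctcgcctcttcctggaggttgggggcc
Max upstream, chr12:76962249-76962498: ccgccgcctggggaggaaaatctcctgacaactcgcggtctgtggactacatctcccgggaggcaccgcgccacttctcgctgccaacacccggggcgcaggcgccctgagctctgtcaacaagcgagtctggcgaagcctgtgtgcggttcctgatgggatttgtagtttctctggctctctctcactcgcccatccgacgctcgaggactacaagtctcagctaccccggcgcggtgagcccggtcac
Mxi1 upstream, chr19:53310256-53310505: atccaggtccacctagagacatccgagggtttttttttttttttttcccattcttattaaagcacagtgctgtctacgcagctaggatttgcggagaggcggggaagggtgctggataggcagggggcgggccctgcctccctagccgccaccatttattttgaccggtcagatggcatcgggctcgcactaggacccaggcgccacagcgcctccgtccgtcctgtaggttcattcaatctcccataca
The GC content of these 250 bases was 58.0% for Mxd4, 70.0% for Mnt, 53.6% for Mlx, 63.6% for Max and 55.2% for Mxi1.

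Promoter strength was read as a rank. In each library, the promoter peak with the highest fold enrichment (summit pileup over local background, the deposited ratio) stood for the gene, and its place among the 10777 genes was expressed as a percentile, with 100 the strongest. A rank carries no information on the total amount of H3K9ac. Some ranks are also given with peaks ordered by -log10 p. Under that ordering more of all genes were called in the other 3 groups together against scramble than by fold enrichment. Where groups are said not to overlap by rank, the share of all genes that also do not overlap is not given here. By the median over 12 libraries, the order was Mnt (88.7), Myc (81.0), Mxi1 (66.0), Max (64.6), Mlx (47.1), Mxd1 (38.6), Mxd3 (24.4) and Mxd4 (8.68). Mycl, placed on the same scale in the 11 libraries that called it, came last with a median of 3.05. The ranges of every neighbouring pair in this order overlapped, so the order separates only genes that lie far apart, such as Mnt (61.5 to 98.3) and Mxd4 (4.55 to 17.3).

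**Figure D1:**
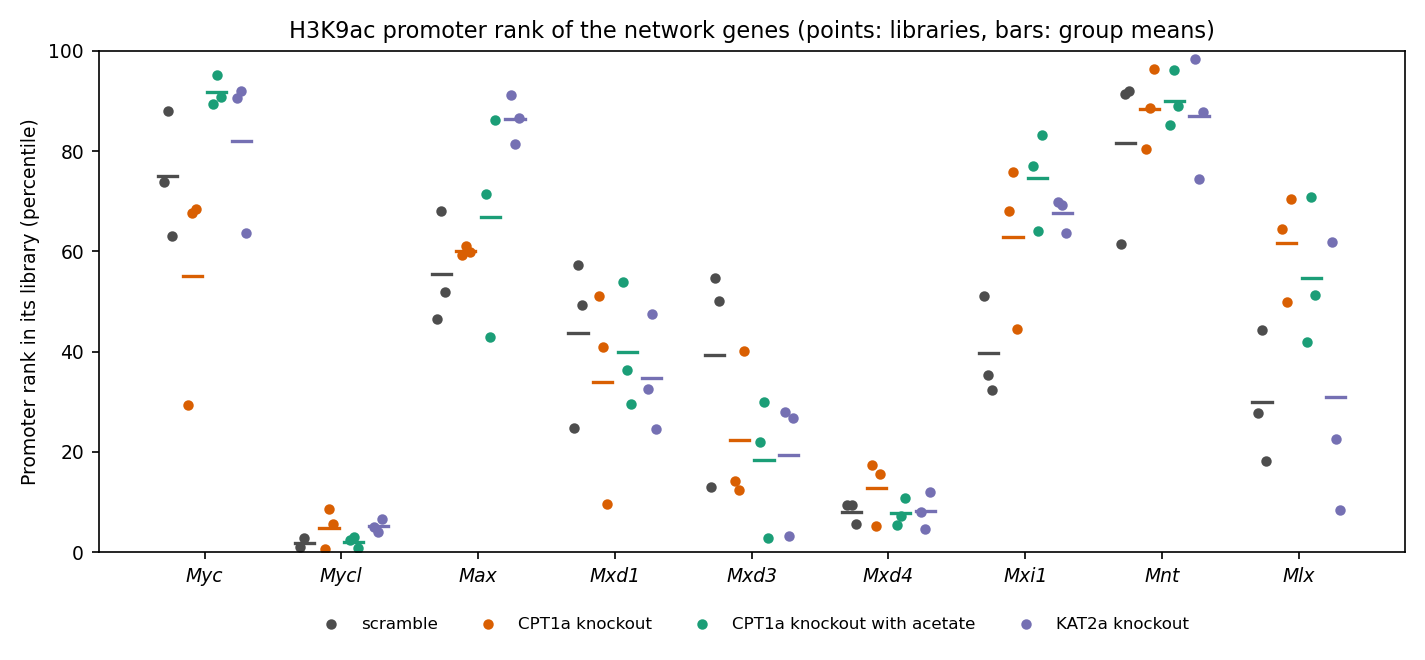
H3K9ac promoter rank (percentile within a library, vertical axis) of 9 network genes in 12 libraries, with 1 point per library, colours for the 4 groups and bars for group means. Mxd4 and Mycl lie below 20 in every library that called them, the 3 scramble points of Mxi1 lie between 32.4 and 51.2, and Mycn has no points because it had no peak.

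Of the 3 Myc family genes, only Myc had a strong promoter in these cells. Myc (chr15:61985391-61990374, plus strand, GRCm38) had a single promoter peak of 5457 to 7886 bp in each list. Called peaks covered 3854 to 4984 of the 4984 bp of the gene, and all of it only in scramble replicate 1. In CPT1a knockout with acetate replicate 1 a further peak lay in the gene body. The summit of the promoter peak was in an intron in 9 libraries, in a coding exon in 2 and in a 5′ UTR exon in 1. The peak also covered the start of the annotated transcript Gm37947 in all 12 libraries, so its signal cannot be assigned to Myc alone. The Myc promoter ranked at 73.9, 88.1 and 63.0 in scramble, 29.4, 67.7 and 68.4 in CPT1a knockout, 89.4, 95.2 and 90.8 in CPT1a knockout with acetate, and 90.5, 92.0 and 63.7 in KAT2a knockout. CPT1a knockout replicate 1 stood far below its group, and all 3 libraries with acetate lay above all 3 CPT1a knockout libraries without it. The acetate difference was +36.6 percentile points (SE 11.4) with an unadjusted p of 0.00846 in limma, which did not pass over all genes (adjusted p = 0.355). No gene at all was called in that comparison by rank (0%, with 1009 of 10777 genes at an unadjusted p below 0.05). CPT1a knockout against scramble gave -19.8 points for Myc (adjusted p = 0.301), which passed when peaks were ordered by -log10 p (-18.8, adjusted p = 0.0407). KAT2a knockout against scramble gave +7.10 (adjusted p = 0.783).

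Mycn (chr12:12936093-12941914, minus strand) had no peak within the gene or 1000 bp around its start sites in any list. A list holds only what passed the caller's threshold, so signal under that threshold was not detectable here. Within 100 kb of Mycn there was a single region, of 338 bp, called in 8 libraries at the pseudogene Rpl36-ps3. By contrast, 9 regions lay within 100 kb of Myc. The region at the start of Pvt1, the long non-coding RNA gene downstream of Myc, began 45.9 kb beyond its end, was called in all 12 libraries, and its median place among all peaks of a list was the 82.7th percentile.

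Mycl (chr4:122995652-123002485, plus strand) had a weak promoter whose form differed between scramble and the rest. In scramble, replicate 1 had a single peak of 555 bp that ended 383 bp before the gene start, replicate 2 had 5 small peaks of 200 to 342 bp, and replicate 3 had none. The strongest peak was 1328, 1411 and 1274 bp wide in CPT1a knockout, 1807, 761 and 1162 bp in CPT1a knockout with acetate, and 1738, 1769 and 1575 bp in KAT2a knockout, against 555 and 282 bp in the scramble libraries that called it. In 8 of the 9 libraries outside scramble the strongest peak was 1162 bp or wider and spanned the gene start, while in CPT1a knockout with acetate replicate 2 the signal was in 3 pieces. The fold enrichment of the strongest Mycl peak was 5.17 and 6.62 in scramble and 6.85 to 16.8 elsewhere, a ratio that also moves with depth. The GC content of that peak was 46.1 and 44.0% in scramble and 63.6 to 69.5% elsewhere, so in the 2 scramble lists the strongest peak lay on other, AT-richer sequence. Summed over its 5 peaks, the width in scramble replicate 2 was 1333 bp. Without a value in scramble replicate 3 Mycl was not tested.

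Max, the obligate partner of Myc and of the repressors, showed the largest difference in extent among the 8 genes tested. Its gene (chr12:76937269-76962201, minus strand) is 24933 bp long, and the summit of the strongest promoter peak lay in an intron in all 12 libraries. The peak was 5877, 2599 and 5470 bp wide in scramble, 2428, 1631 and 1613 bp in CPT1a knockout, 1752, 2332 and 1868 bp in CPT1a knockout with acetate, and 1844, 3035 and 1606 bp in KAT2a knockout. In scramble replicates 1 and 3 the peak ran without a break to 5727 and 5320 bp past the gene start. In scramble replicate 2 the signal reached as far, to 5827 bp, but with a break of 221 bp. In the other 9 libraries the promoter peak ended 1375 to 2217 bp past the start, and a separate intronic peak began 3302 to 3869 bp past it.

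Max was called narrower in CPT1a knockout against scramble, by -1.24 on the log2 scale (SE 0.332, limma, adjusted p = 0.0212), a width of 0.424 times that in scramble. It was also called in the other 3 groups together (-1.15, SE 0.271, adjusted p = 0.0126). The differences of KAT2a knockout (-1.07, adjusted p = 0.0857) and of CPT1a knockout with acetate (-1.15, adjusted p = 0.0580) from scramble did not pass. With peaks within 500 bp joined, an alternative added after the data were seen, both passed (-1.32, adjusted p = 0.000251, and -1.30, adjusted p = 0.000257), beside a median over all genes of -0.43 and -0.46. By summed width both passed too (adjusted p = 0.0240 and 0.0141). The call for the 3 groups together was lost without scramble replicate 1 (-0.94, adjusted p = 0.0686) or 3 (-0.99, adjusted p = 0.0606). That for CPT1a knockout was lost without either of these or without CPT1a knockout replicate 2 or 3 (adjusted p = 0.0546 to 0.0791). Among all 22 alternatives, which include these fits, 16 kept the CPT1a knockout call, and the adjusted p rose to as much as 0.152. Promoter peaks of all genes were narrower too, with a median difference of -0.38 for CPT1a knockout and -0.27 for the 3 groups together. The H3K9ac-covered length within Max, which adds up all peaks over the gene and leaves out the breaks between them, was 5728, 5607 and 5521 bp in scramble, 2789, 2496 and 2298 bp in CPT1a knockout, 2946, 3356 and 3014 bp in CPT1a knockout with acetate, and 3027, 3661 and 2540 bp in KAT2a knockout. All 3 scramble libraries lay above the other 9, with a ratio of means of 1.94. Such a complete separation was common, since 47% of the 10777 genes showed it, but only 5.77% of genes had a larger ratio, and the median ratio was 1.38. Among the 8 network genes with a peak in all libraries, 3 separated in this way (Myc, Max and Mlx), and the median ratio of the 8 was 1.135.

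By rank Max was not called in any comparison. The ranks were 46.5, 68.1 and 51.9 in scramble, 59.2, 61.1 and 59.8 in CPT1a knockout, 71.5, 43.0 and 86.2 in CPT1a knockout with acetate, and 91.2, 81.4 and 86.5 in KAT2a knockout. The acetate replicate 2 library lay below all of scramble, and the KAT2a knockout libraries lay above all scramble libraries, with a difference of +30.9 points (SE 9.68, adjusted p = 0.0999) that did not pass. When peaks were ordered by -log10 p in place of fold enrichment, the difference was +32.4 points and passed (adjusted p = 0.0174).

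Mxd3, a repressor of the Mxd family, went the other way by peak width, and its promoter signal was broken in scramble. Its gene (chr13:55325168-55329823, minus strand) had 2 promoter peaks in each scramble library and 1 in each of the other 9. The strongest peak was 1955, 1855 and 1761 bp wide in scramble, 2643, 2757 and 2489 bp in CPT1a knockout, 2722, 2352 and 2929 bp in CPT1a knockout with acetate, and 2702, 3051 and 2701 bp in KAT2a knockout. Every scramble value lay below every other value, though the share of all genes with such a separation by width is not given here. The peak was called wider in CPT1a knockout (+0.50, SE 0.144, adjusted p = 0.0268), in KAT2a knockout (+0.60, SE 0.144, adjusted p = 0.0498) and in the 3 groups together (+0.54, SE 0.117, adjusted p = 0.00968), each against scramble on the log2 scale. The call in KAT2a knockout was lost in 10 of the 12 fits that left out 1 library (adjusted p up to 0.151), and that in CPT1a knockout without CPT1a knockout replicate 1 or 2 or scramble replicate 3 (adjusted p up to 0.0705). With peaks joined in the same way, the sign turned (-0.21 for the 3 groups together, adjusted p = 0.109), and the summed width of the promoter peaks differed by +0.04 (adjusted p = 0.787). The call for Mxd3 thus rests on whether the signal was counted as 1 peak or 2.

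The stretch of Mxd3 that no scramble list covered and all 9 other lists did is 88 bases long, lies upstream of the gene start, and has 77.3% GC. It also holds CACGTG, upstream of the RefSeq window searched above. The stretch is written on the gene's strand with CpG dinucleotides, and not the E-box, in capitals.
Mxd3 upstream, chr13:55329963-55330050: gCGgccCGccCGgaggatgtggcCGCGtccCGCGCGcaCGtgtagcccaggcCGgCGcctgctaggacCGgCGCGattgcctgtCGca
The breaks in the scramble lists were 113, 172 and 408 bp long, with a GC content of 77.0, 76.2 and 72.5%. The part that base composition had in the width differences of Mxd3, Mycl and Max was not tested beyond these values.

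**Figure D2:**
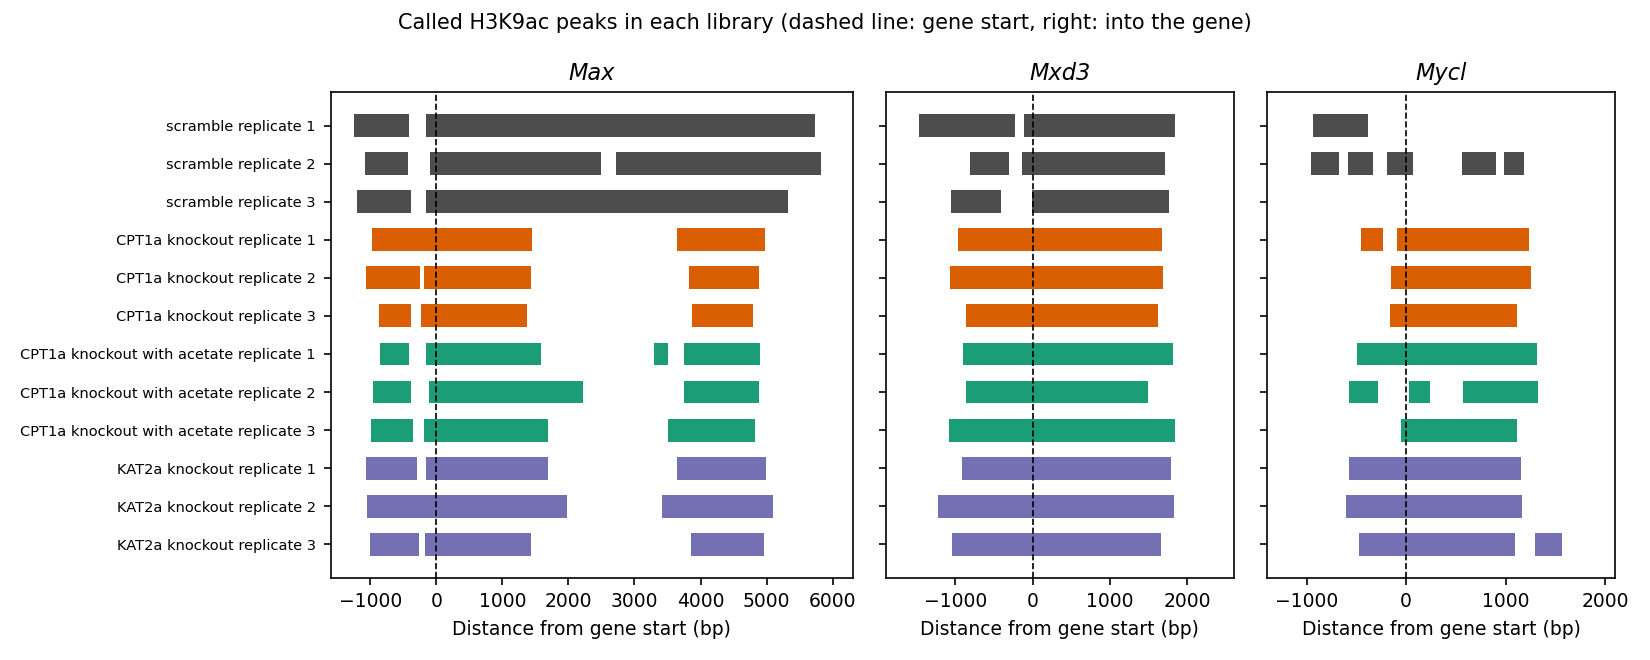
Called H3K9ac peaks of each of the 12 libraries (rows, coloured by group) at Max, Mxd3 and Mycl, against the distance from the gene start in bp (horizontal axis, dashed line at the start, the gene to the right). In the 3 scramble rows Max is covered to at least 5320 bp past the start, Mxd3 is broken in the 500 bp before its start, and Mycl has small peaks or none.

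Mxi1, the Max-binding repressor also called Mxd2, was the only network gene called by rank with the main settings, where peaks were ordered by fold enrichment. The gene (chr19:53310518-53375810, plus strand) has start sites in 2 places, and the strongest peak lay at the first in all 12 libraries. Its promoter ranked at 51.2, 35.4 and 32.4 in scramble, 68.1, 75.8 and 44.5 in CPT1a knockout, 76.9, 64.0 and 83.1 in CPT1a knockout with acetate, and 69.9, 69.2 and 63.6 in KAT2a knockout. Only CPT1a knockout replicate 3, the library with the lowest calling depth, overlapped scramble. The rank was higher in CPT1a knockout with acetate (+35.0 points, SE 8.58, adjusted p = 0.0392) and in the 3 groups together (+28.7, SE 7.003, adjusted p = 0.0254), while CPT1a knockout (+23.1, adjusted p = 0.116) and KAT2a knockout (+27.9, adjusted p = 0.0953) did not pass. Without scramble replicate 2 or 3 the call for the 3 groups together was lost (adjusted p = 0.0890 and 0.118), and the call with acetate was lost without any 1 of 8 libraries, which included all of scramble and of its own group (adjusted p up to 0.125).

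The Mxi1 call depended on how peaks were ordered. Ordered by -log10 p, the difference of the 3 groups together from scramble was +1.91 points (adjusted p = 0.819), and with the GC trend of each library removed it was +9.83 (adjusted p = 0.576). The GC content of the peak itself hardly varied, from 58.3 to 60.1% over the 12 libraries, and its width, 3698 to 4188 bp, differed by -0.0016 on the log2 scale between the rest and scramble (adjusted p = 0.994). The second Mxi1 promoter, about 19 kb into the gene, also had a peak in every list. Its fold enrichment was 7.51, 9.87 and 10.1 in scramble and 10.4 to 24.8 in the other 9 libraries. All 3 scramble values lay below the other 9, on a scale that is not corrected for depth and on which 20.4% of all genes showed the same separation at their strongest promoter peak.

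**Figure D3:**
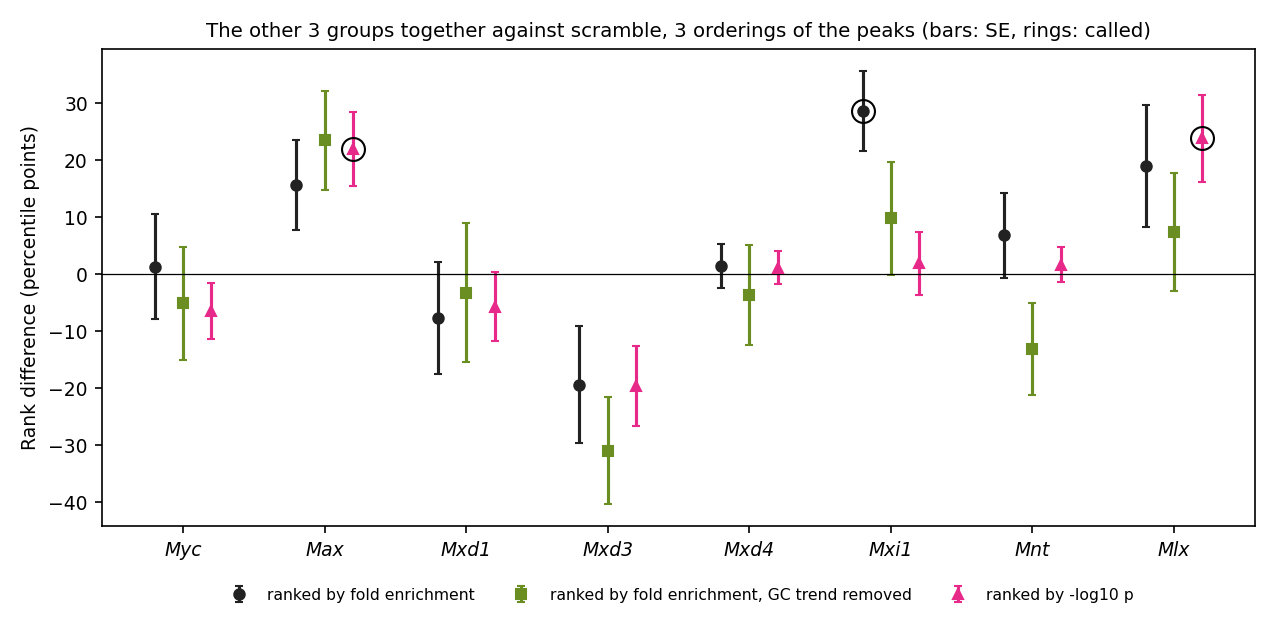
Difference in promoter rank (percentile points, vertical axis) between the other 3 groups together and scramble for the 8 network genes tested, under 3 orderings of the peaks, with SE bars and rings at calls (limma, adjusted p below 0.05). Mxi1 is ringed by fold enrichment at +28.7 and falls to +1.91 by -log10 p, where Max (+22.0) and Mlx (+23.9) are ringed. By -log10 p more of all genes were called than by fold enrichment.

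The remaining repressors showed no call with the main settings. By width, 1 of 22 alternatives called Mxd1 in CPT1a knockout against scramble (limma, adjusted p = 0.0258). Likewise 1 called Mxd4 in the 3 groups together (adjusted p = 0.0477). Mxd1 ranked between 9.71 and 57.3, with the lowest value in CPT1a knockout replicate 3, and its difference in the 3 groups together was -7.60 points (adjusted p = 0.670). Mxd4 stayed between 4.55 and 17.3 in every group (+1.52 points, adjusted p = 0.841). Mnt, another Max-binding repressor, ranked between 61.5 and 98.3 (+6.81 points, adjusted p = 0.602) and had 2 to 7 promoter peaks per list. Its strongest peak was 1151 to 3765 bp wide in scramble and 1787 to 4994 bp elsewhere, a difference of +0.99 on the log2 scale (SE 0.401, adjusted p = 0.0894). With peaks joined the Mnt difference was +0.04 (adjusted p = 0.853), and by summed width +0.32 (adjusted p = 0.241). Of 22 alternatives, 3 called the Mnt width in the 3 groups together (lowest adjusted p = 0.0182) and 2 in CPT1a knockout (lowest adjusted p = 0.0324).

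Mlx, the Max-like protein of the parallel branch, ranked at 27.7, 44.3 and 18.1 in scramble, 64.5, 49.9 and 70.4 in CPT1a knockout, 42.0, 70.8 and 51.2 in CPT1a knockout with acetate, and 61.9, 22.7 and 8.37 in KAT2a knockout. CPT1a knockout did not overlap scramble, while the KAT2a knockout libraries ranged from below to above scramble. The difference of CPT1a knockout from scramble was +31.5 points (SE 13.2, adjusted p = 0.158) and did not pass by fold enrichment. Ordered by -log10 p, it was +33.0 and passed (adjusted p = 0.0233). The width of Mlx differed by -0.56 in CPT1a knockout (SE 0.202, adjusted p = 0.0609), and this passed by summed width (-0.60, adjusted p = 0.0178) and with peaks joined (-1.08, adjusted p = 0.0204), beside medians over all genes of -0.54 and -0.66.

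Counted over the 8 testable genes, calls were few in every comparison. By rank, 0 were called in CPT1a knockout against scramble, where 9.9% of all genes were, and 0 in KAT2a knockout, where 4.32% were. In CPT1a knockout with acetate against scramble 1 was called (background 5.91%), and 1 in the 3 groups together (background 11.8%). By width, 2 were called in CPT1a knockout (background 26.4%), 1 in KAT2a knockout (2.9%), 0 where acetate was added to CPT1a knockout (5.98%) and 2 in the 3 groups together (25.7%), all against scramble. Set against CPT1a knockout without it, acetate gave 0 calls by width as well (0% of all genes, with 232 of 10777 at an unadjusted p below 0.05). The median width difference of the 8 genes in the 3 groups together was -0.01, against -0.27 over all genes. All comparisons with scramble share the same 3 libraries.

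**Figure D4:**
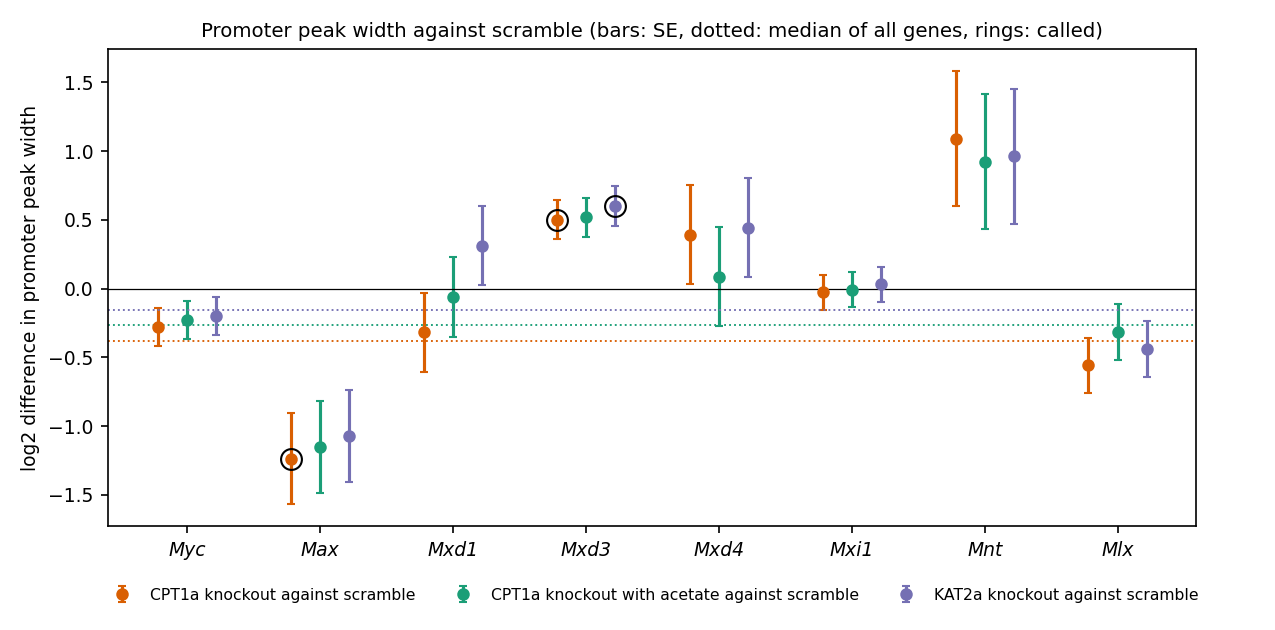
log2 difference in promoter peak width from scramble (vertical axis) for 8 network genes in 3 comparisons, with SE bars, dotted lines at the median of all genes in each comparison and rings at calls (limma, adjusted p below 0.05). Max lies below -1.0 and Mxd3 above 0.5 in all 3, and the rings mark Max in CPT1a knockout and Mxd3 in CPT1a knockout and KAT2a knockout.

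Beyond their promoters, the network genes differed in how much lay around them. Within 100 kb, merged over the 12 lists, there were 31 regions around Mlx, 22 around Mxi1, 21 around Mnt, 16 around Mxd1 and 1 to 9 around the others. Regions that held no annotated start site and were called in all 12 libraries numbered 1 each around Max, Mxd1, Mxi1 and Mlx. That of Max lay 56.6 kb upstream and had a median place at the 59.0th percentile of all peaks, that of Mxd1 lay 61.2 kb beyond the gene's end (48.2) and that of Mxi1 44.5 kb beyond it (52.7). Inside Mxd1, 1841 to 2998 bp were covered in scramble, 1067 to 1356 bp in CPT1a knockout, 1325 to 1906 bp in CPT1a knockout with acetate and 1513 to 2135 bp in KAT2a knockout. Only CPT1a knockout did not overlap scramble, and 25.2% of all genes had a larger ratio of scramble to the rest.

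Genes that work with the network were listed as 30 partners (dimer partners, acetyltransferase and remodelling subunits, repressor complexes and regulators of Myc turnover), of which 29 were called in every library. Mlxipl, which encodes the glucose-responsive Mondo protein ChREBP, had none in any library. By rank, 5 partners were higher and 2 lower in the 3 groups together against scramble, with a median difference of +4.15 points against +0.04 over all genes, of which 11.8% were called. Usf2, an E-box binding factor outside the network, ranked at 33.7, 4.99 and 25.7 in scramble and 51.2 to 94.4 in the other 9 (median 78.7), a difference of +55.4 (SE 8.17, adjusted p = 0.00324) with no overlap. Kat2a itself ranked at 6.04 to 8.06 in scramble, 35.7 to 60.9 in CPT1a knockout, 25.9 to 29.5 in CPT1a knockout with acetate and 13.1 to 42.4 in KAT2a knockout. Ep400, the ATPase of the Tip60 complex that Myc recruits, differed by +36.3 (SE 9.52, adjusted p = 0.0338). Huwe1, a ubiquitin ligase that acts on Myc, ranked at 86.7, 76.6 and 80.4 in scramble and 25.1 to 65.0 elsewhere (-30.3, SE 7.16, adjusted p = 0.0220), and Ruvbl1 differed by -19.6 (adjusted p = 0.103). In CPT1a knockout against scramble 5 were higher and 2 lower, in KAT2a knockout 2 and 1, with acetate against scramble 2 and 0 (9.9, 4.32 and 5.91% of all genes were called), and with acetate against CPT1a knockout none. By width, 0 were wider and 7 narrower in CPT1a knockout, 0 and 1 in KAT2a knockout, and 2 and 9 in the 3 groups together, where 26.4, 2.9 and 25.7% of all genes were called, most of them narrower.

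A list of 40 established Myc targets, among them genes of ribosome assembly, nucleotide synthesis and the cell cycle, had 38 members that were called in every library, the exceptions being Tert and Cdkn2b. By rank, 0 were higher and 3 lower in the 3 groups together against scramble (Apex1, Ddx18 and Rrs1), with a median difference of -3.09 points against +0.04 over all genes. These 3 of 38 stand beside 11.8% of all genes called. Rrs1, a ribosome assembly factor, ranked at 83.1, 78.3 and 73.8 in scramble and 7.38 to 47.5 in the other 9 libraries (-58.1, SE 9.30, adjusted p = 0.00433). Apex1, a DNA repair endonuclease, ranked at 75.5, 79.3 and 71.4 in scramble and 23.0 to 50.6 elsewhere (-38.9, SE 6.14, adjusted p = 0.00413). Neither overlapped. At the other end, Npm1 differed by +25.1 (adjusted p = 0.302) and Eif4e by +24.5 (adjusted p = 0.0771). Against the same scramble libraries, 0 were higher and 3 lower in CPT1a knockout, and 0 and 2 in each of KAT2a knockout and CPT1a knockout with acetate, where 9.9, 4.32 and 5.91% of all genes were called. By width, 1 was wider and 6 narrower in the 3 groups together, where 25.7% of all genes were called.

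For each network gene, the gene whose promoter rank ran most alike over the 12 libraries was looked up, leaving out any that shared its promoter peak. Pearson's r, the highest over all genes tested, was 0.942 for Mnt with Ppt2, 0.922 for Mxd3 with Polr2e, 0.919 for Myc with Ncbp2 and for Mxi1 with Zc3h6, 0.909 for Mxd4 with Pald1, 0.901 for Mlx with Nsf, 0.873 for Max with Spns2 and 0.860 for Mxd1 with Rtf2. The points are the same 12 libraries with their shared depth and base composition, and the highest value of so many is high by selection. The 8 nearest genes were all different, and none was a network gene.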

How the data were processed

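H3K9ac was measured by ChIPmentation in 12 libraries of 4T1 spheroids, 3 for each of 4 groups, as grouped by the labels. The study's methods name BWA, mm10, Picard duplicate removal and a Drosophila spike-in, while the submitters' processing notes list Bowtie2, SAMtools, deepTools and MACS2 with the builds mm10 and dm6, so the aligner is not settled. Spike-in scaling was not used here, and total H3K9ac could not be compared. The authors deposited 1 peak list per library, with a fold enrichment ratio, a -log10 p-value, a -log10 q-value and an integer score for each peak, none of them scaled between libraries. Each list was called at its own depth, and the part of depth in widths and counts of peaks was not separated.

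Promoters (1000 bp to either side of each GENCODE vM21 start site) were assigned every overlapping peak with pandas 2.3.3 and Python 3.11.15. Ranks and log2 widths of the strongest promoter peak were tested over the 10777 genes called in all 12 libraries with limma 3.58.1 in R 4.3.3, with group as the only term, Benjamini-Hochberg adjustment over all genes and calls at an adjusted p below 0.05. No pairing by replicate number was used. The fit was tested on simulated data. The network genes, partners, targets and markers were chosen with earlier results of these data known. All 10 network genes are named, with the most similar gene of each testable one. Values are given for 4 genes from each list, those with the largest differences either way, and for Kat2a as a targeted gene, while genes not called in every library, called targets and markers are named as counts of 5 or fewer or as whole lists. Alternatives were another ordering column, window, overlap, threshold and scale, lists of equal length, removal of the GC trend, a replicate block, and leaving out each library. Joining peaks within 500 bp and keeping only libraries with a calling depth of at least 1 were chosen after seeing the data. Sequence was read with pysam 0.24.0 from GRCm38 and RefSeq, and figures were drawn with matplotlib 3.10.9. The sequence of 1 stretch within Max is not reported here.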

Additional observations from a re-analysis of the deposited data

How the results depend on the processing

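The network genes called at the promoter in every library numbered 8 under each of 6 other settings. Ordered by -log10 p, the rank calls among the network genes were 2 in CPT1a knockout (Myc and Mlx), 1 in KAT2a knockout and 2 in the other 3 groups together, each against scramble. More of all genes passed under this ordering in the 3 groups together. There a limma p of 0.0177 (Mxd3) was adjusted to 0.0528, while by fold enrichment a p of 0.0201 (Ruvbl1) was adjusted to 0.103. In CPT1a knockout with acetate against scramble, Mlx passed by rank under 1 alternative (adjusted p = 0.0484). With the GC trend removed the rank calls were 0 with acetate and 0 in the 3 groups together, and with normal scores 0 with acetate. With only libraries of a calling depth of at least 1, chosen after seeing the data, the rank calls were 1 in CPT1a knockout and 2 in KAT2a knockout, and the width calls 1 in CPT1a knockout and 1 with acetate. Width calls with acetate were also 1 by summed width, by width percentile and with peaks within 500 bp joined, and those in KAT2a knockout were 0 with lists of equal length. Joining, also chosen after seeing the data, reversed Mxd3 to -0.28 in CPT1a knockout, -0.18 in KAT2a knockout and -0.21 in the 3 groups together. The causes were not tested. The share of all genes called is not set beside the counts in this section, so they are not a result about the network genes.

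Leaving out 1 library at a time gave 0 to 1 rank calls in each comparison with scramble. Width calls ranged from 0 to 3 in CPT1a knockout, 0 to 2 with acetate, 0 to 1 in KAT2a knockout and 2 to 3 in the 3 groups together. Acetate against CPT1a knockout gave 0 calls by rank and by width under all of its alternatives.

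The replicate numbers do not pair the libraries, since the correlation of deviations between same-numbered libraries ran from -0.0618 to 0.0673 over 18 pairs. With the replicate block, the rank calls with acetate fell to 0 (Mxi1, adjusted p = 0.0571) and the width calls in KAT2a knockout to 0 (Mxd3, adjusted p = 0.0868), while Mlx was called narrower in CPT1a knockout (adjusted p = 0.0467). Lists hold only peaks past the caller's threshold, and calling depth fell to 0.554 and 0.660 in 2 libraries, so a missing or narrow peak there may lie under the threshold.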
